A study of Oryza sativa Japonica Group and Oryza sativa Indica Group and Oryza sativa Indica Group x Oryza sativa Japonica Group with 9 samples.

Results

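On chromosome 12 of rice, 388 neighbouring loci form a block in which the seedling transcriptomes of the cultivars C92 and MH63 differed more often than over all loci. The block runs in ID order from LOC_Os12g25200 to LOC_Os12g29330 and holds 388 of the 55783 loci in the data, at places 2178 to 2565 of the 4012 loci of chromosome 12. It was selected on the parental fold changes: 25 of its 50 tested loci were called at 2-fold or more between the parents (50%, against 10.9% over all tested loci), so this share describes the choice and is no finding. The series holds 9 RNA-seq libraries of shoots from 14-day-old seedlings, 3 each of C92, which the labels give as japonica rice, of MH63, given as indica rice, and of their F1 hybrid. MH63 is Minghui 63, a restorer line of hybrid rice breeding. The labels name no transgene and no treatment for any group. All seedlings grew in water at 28 °C, with 16 h of light (100 µmol per square metre and second) and 8 h of darkness a day. The labels write the cross in both orders, so the seed parent is not known here. The design text calls the replicates biological without saying which plants went into each, so p-values cover only the spread between these 9 samples.

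Indica and japonica are the main subspecies of Asian cultivated rice. Their genomes differ by single bases and also by whole genes that one subspecies carries and the other lacks or has lost in part. In an F1 plant both parental copies of a chromosome share a nucleus. A difference that lies in the copies themselves (in cis) leaves each copy at its own activity, so that the hybrid stands midway between the parents, whereas a factor made elsewhere in the genome (in trans) acts on both copies. IDs of the form used here number loci along each chromosome, so neighbours in ID order are neighbours on it. The files pair no ID with a gene name, and 0 of the 388 IDs occur in the RefSeq gene table of assembly ASM3414082v1 used for names. Loci are therefore given by ID or by their place from 1 to 388 in the block, without function, and the shoot label could not be checked against marker genes.

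The authors deposited FPKM, a fragment number divided by transcript length and library size. Summed over all loci they came to between 602005 and 623806 in each library, and the depth read from the low values lay between 0.956 and 1.25 times that of C92 library 1. Libraries of a group correlated at 0.977 to 0.990 (Pearson, across tested loci, which are not independent replicates). Over all loci divergent between the parents, F1 libraries 1 and 2 stood nearer to C92 than F1 library 3 did, so hybrid values are given by library where they matter. The genome used for alignment is not given in the sources used here, so lower expression in a parent and a poorer match of its reads cannot be told apart.

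Most of the block was silent or nearly so in these shoots. Of its 388 loci, 127 (32.7%) were listed at 0 in all 9 libraries, against 20.5% of all loci. A further 211 were detected in some library without reaching FPKM 1 in 3 libraries, and their 9-library means ranged from 0.00111 to 0.971. The other 50 loci (12.9%) passed that filter and were tested; of all loci, 38.4% passed. The flanks, taken as the 400 loci on each side, were sparse as well before the block (15.5% tested) and less so after it (26.5%). Of the 50 tested loci, 29 reached FPKM 1 in all 9 libraries. Another 14 did so in no MH63 library and 6 in no C92 library. Such loci passed only through the other parent or F1, so parental differences among them follow in part from the filter.

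**Figure D1:**
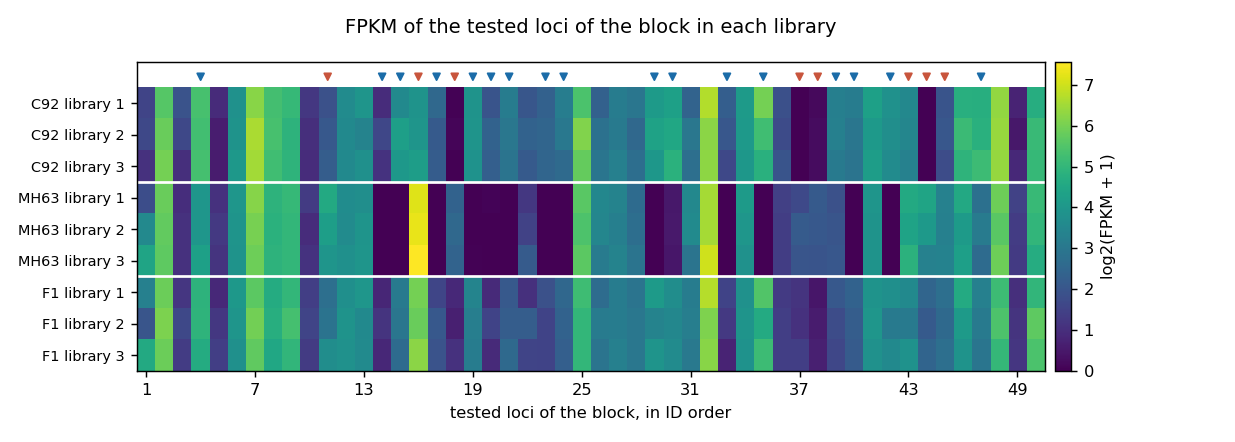
Each column is a tested locus of the block in ID order and each row a library, with colour for log2(FPKM + 1); triangles mark the 25 loci called at 2-fold or more, blue where C92 and red where MH63 is higher. Many columns that are dark in all 3 MH63 libraries are lit in C92 and, at an intermediate level or near that of C92, in F1. Columns of like level in all 9 libraries lie among the divergent ones.

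Between the parents, 17 loci were higher in C92 at 2-fold or more and 8 higher in MH63. Over all tested loci the shares of such calls were 6.46% and 4.41%. Without a fold limit, 34 of 50 were called, against 34.1% of all tested loci. These counts come from the contrast that chose the block and nothing is read from them. Of the 17 loci higher in C92, 11 were listed at 0 in all 3 MH63 libraries. Of the 8 higher in MH63, 2 were listed at 0 in all 3 C92 libraries. Over all tested loci, whatever their fold change, 335 were above 0 in every C92 library and at 0 in every MH63 library. The reverse held at 151, while 1386 and 945 loci were higher in C92 and in MH63 at 2-fold or more. These counts too come from the parental contrast, and such loci passed the filter only through the other parent or F1.

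LOC_Os12g28015, at place 267, had the largest excess in C92. Its FPKM was 62.0, 36.9 and 27.0 in C92 libraries 1, 2 and 3, 0 in every MH63 library, and 44.4, 23.4 and 35.6 in F1. The C92 and F1 libraries overlapped, while MH63 stood apart from both. LOC_Os12g27335, at place 204, was at 16.5, 19.6 and 15.1 FPKM in C92, at 0 in every MH63 library, and at 16.4, 9.44 and 14.0 in F1. Here too only MH63 was set apart, and F1 library 1 lay within the C92 range.

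The opposite pattern was seen at fewer loci. LOC_Os12g28710, at place 329, was listed at 0 in every C92 library. It had 20.3, 15.7 and 9.10 FPKM in MH63 and 4.49, 3.45 and 4.37 in F1. All F1 libraries lay below all MH63 libraries. LOC_Os12g26290, at place 102, was among the most abundant loci of the block. It had 13.8, 14.5 and 17.4 FPKM in C92, 146, 158 and 188 in MH63, and 62.5, 55.5 and 74.4 in F1. Its MH63 mean was 10.8 times the C92 mean, and the 3 groups did not overlap.

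Loci of like level stood between the divergent ones. Of the 50 tested loci, 16 were not called between the parents, and 9 were called at less than 2-fold. LOC_Os12g27520, the locus with the highest mean, had 103, 75.5 and 75.8 FPKM in C92, 91.6, 91.95 and 127 in MH63, and 104, 67.3 and 73.8 in F1, with all 3 groups overlapping. LOC_Os12g25640 had 13.2, 13.6 and 15.2 FPKM in C92, 14.7, 14.2 and 13.8 in MH63, and 15.3, 14.4 and 12.8 in F1. LOC_Os12g27090 had 6.90, 4.92 and 5.60 FPKM in C92, 5.28, 5.64 and 6.56 in MH63, and 6.48, 6.99 and 7.00 in F1. These last 2 had the smallest parental difference among members averaging at least 5 FPKM.

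Along the block the divergent loci were not in a single direction. The first 97 loci held 3 higher in C92 and 1 higher in MH63 among 15 tested; the next 97 held 6 and 2 among 13; the 97 after these held 6 and 2 among 13; and the last 97 held 2 and 3 among 9. The longest uninterrupted run had 8 tested loci at 2-fold or more and went from LOC_Os12g26100 to LOC_Os12g26530, across 38 loci. Within it 6 were higher in C92 and 2 in MH63. Its first member had 0.95, 2.04 and 1.16 FPKM in C92, 0 in every MH63 library, and 0.75, 1.22 and 0.81 in F1. Its last member had 8.07, 7.00 and 6.50 FPKM in C92, 0 in every MH63 library, and 3.36, 3.73 and 5.01 in F1. At the last member all F1 libraries lay between the parents, while at the first member C92 and F1 overlapped.

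**Figure D2:**
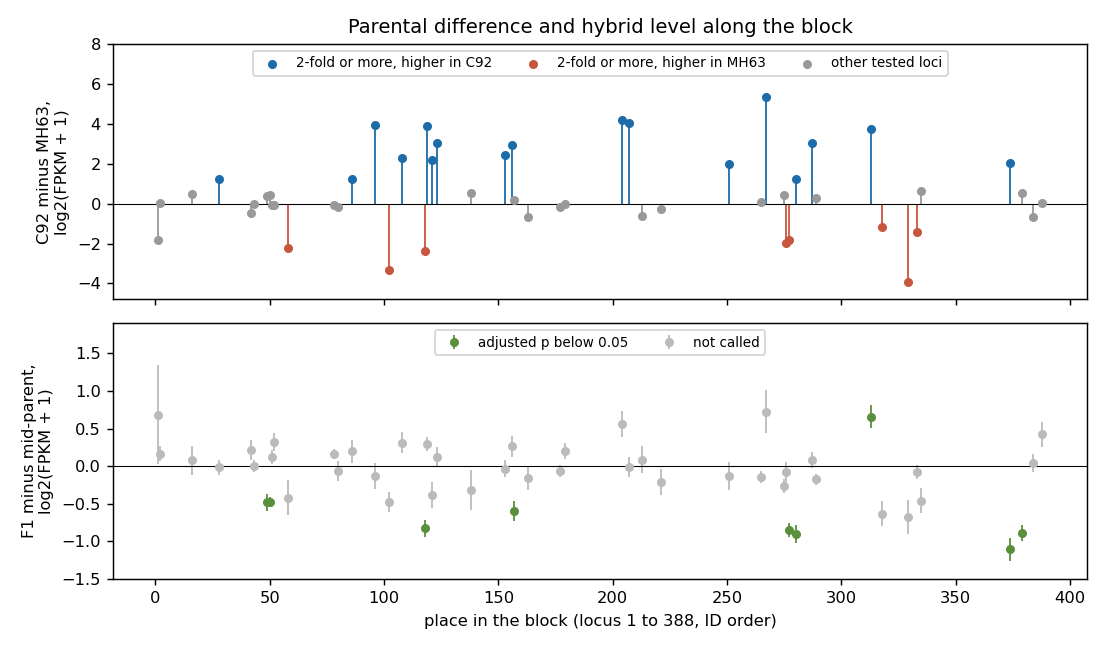
The upper panel gives the parental difference (C92 minus MH63, log2(FPKM + 1)) of the 50 tested loci by place in the block; the lower panel gives F1 minus the arithmetic mid-parent on the same scale, with bars for the standard error. Loci higher in C92 (17) and loci higher in MH63 (8) both occur along the block, and 8 of the 9 loci called against the mid-parent lie below 0.

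The 4 loci at the borders were not called between the parents, though the first member differed widely in its mean. This member, LOC_Os12g25200, had 1.94, 2.13 and 1.09 FPKM in C92, 2.48, 10.7 and 20.5 in MH63, and 8.89, 2.97 and 23.3 in F1, and its MH63 mean was 6.53 times its C92 mean with wide spreads within MH63 and F1. Just outside, LOC_Os12g25180 had 30.1, 27.1 and 30.9 FPKM in C92, 31.6, 34.1 and 44.4 in MH63, and 32.5, 27.3 and 34.5 in F1. At the other border, the last member, LOC_Os12g29330, had 25.01, 33.7 and 32.3 FPKM in C92, 33.2, 30.2 and 24.8 in MH63, and 30.4, 50.8 and 41.4 in F1. Just outside, LOC_Os12g29340 had 9.22, 8.66 and 9.98 FPKM in C92, 10.1, 10.7 and 8.25 in MH63, and 10.1, 11.8 and 9.59 in F1. Parental libraries overlapped at the last member and its outer neighbour. They did not at the first member or at LOC_Os12g25180, where all MH63 libraries were above all C92 libraries.

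In the flanks, 12 of 62 tested loci before the block (19.4%) and 16 of 106 after it (15.1%) were called at 2-fold or more. Of the 12, 7 were higher in C92 and 5 in MH63; of the 16, 8 were higher in each. Among the nearest 200 loci the shares were lower, at 8.70% before and 5.13% after. The nearest window of 50 tested loci that shares none with the block held 16% before and 8% after it. Over the 1047 such windows of chromosome 12, the share had a median of 12% and reached 32%. The median size of the parental difference was 1.20 (log2) in the block, 0.43 and 0.33 in the flanks before and after it, and 0.27 over all tested loci. Because the block was picked for its high share, lower values just outside it follow in part from that choice. They are given as a description. Windows of 50 tested loci that began at LOC_Os12g24870 or LOC_Os12g25490 also held 50%, so slightly shifted borders gave the same share.

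**Figure D3:**
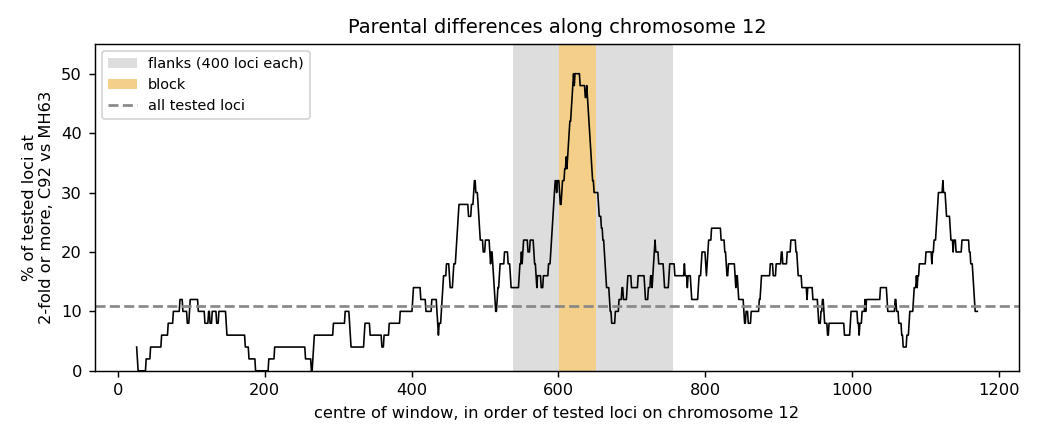
The line gives the percentage of loci called at 2-fold or more between C92 and MH63 in sliding windows of 50 tested loci, by the place of the window's centre among the 1195 tested loci of chromosome 12; the block and its flanks are shaded and the dashed line is the 10.9% of all tested loci. The share reaches 50% at the block and falls to 8% in the nearest separate window after it. The block was picked for its high share, so this fall follows in part from the choice.

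The parental fold changes that chose the block do not use the hybrid libraries. Hybrid libraries did count in the filter on low values and in the shared estimate of spread. At 24 of the 25 divergent loci the F1 mean lay between the parental means. This was common: of all 2331 divergent loci, the F1 mean lay beyond MH63 at 90 and beyond C92 at 99. At 18 of the 25 every F1 library lay between the ranges of both parents, a count given without its share over all loci. The position of F1 was measured as its FPKM minus that of MH63, divided by the FPKM of C92 minus that of MH63, so that 0 is MH63, 1 is C92 and 0.5 the mid-parent. Its median over the 25 loci was 0.62, and 0.61, 0.61 and 0.56 in F1 libraries 1, 2 and 3. Over all 2331 loci divergent at 2-fold it was 0.56, and 0.58, 0.61 and 0.48 by library. For the 17 loci higher in C92 the median position was 0.54, and 9 stood closer to C92 than to MH63 by their means; by library these were 13, 11 and 9. For the 8 loci higher in MH63 it was 0.70, and all 8 stood closer to C92 by their means. By library, these were 8, 8 and 6 in F1 libraries 1, 2 and 3. F1 was thus below the arithmetic mid-parent at each of the 8 loci by its mean, a count also given without its share over all loci. Over all divergent loci the medians were 0.53 for those higher in C92 and 0.60 for those higher in MH63.

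Some loci were expressed in a single parent, which is taken as 1 FPKM or more in each of its libraries and 0.1 or less in each library of the other parent. There were 12 such loci for C92 and 3 for MH63. This is 3.09% and 0.773% of the block's loci, against 0.923% and 0.430% of all loci, and it too follows from the contrast that chose the block. Every one of the 15 was detected in all 3 F1 libraries, a count given without its share over all such loci. The ratio of F1 to the mean of the parent that expresses the locus had a median of 0.591 over the 12 loci expressed only in C92, with a range of 0.330 to 0.851. By library the medians were 0.610, 0.538 and 0.569. Over all 515 such loci of the genome the median was 0.551, with a range of 0 to 1.71. For the 3 loci expressed only in MH63 the ratios were 0.188 at place 118, 0.451 at place 276 and 0.273 at place 329, and over all 240 such loci the median was 0.406. The loci at places 204, 267 and 313 had the highest mean ratios of the 12. In F1 library 1 they had ratios of 0.959, 1.06 and 1.03 to the C92 mean. They had 0.553, 0.558 and 0.618 in F1 library 2, and 0.821, 0.848 and 0.909 in F1 library 3. The other loci expressed only in C92 had ratios of 0.240 to 0.704 in F1 library 1.

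**Figure D4:**
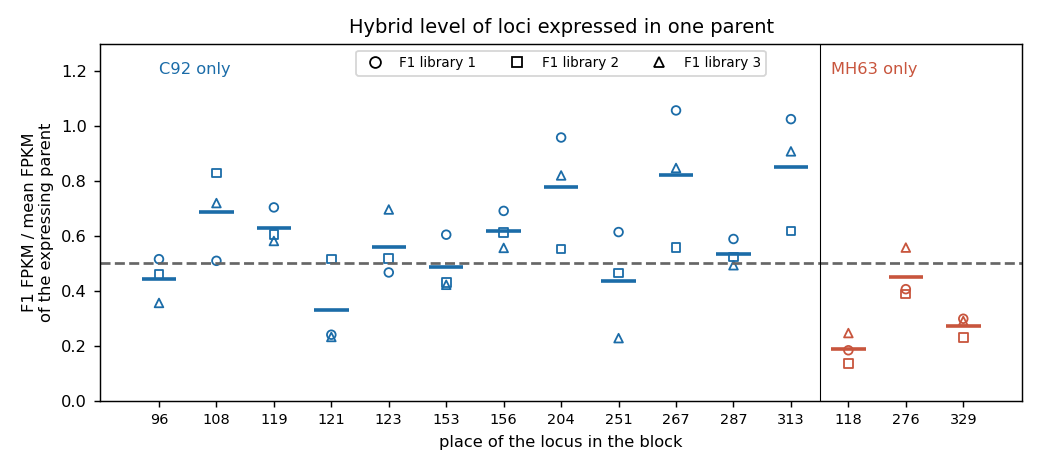
For the 15 loci expressed in a single parent, symbols give the FPKM of each F1 library over the mean FPKM of the parent that expresses the locus and bars give the mean of the 3 libraries; the dashed line is 0.5, the ratio of 1 copy in place of 2 at the same activity. The 12 loci expressed only in C92 range from 0.330 to 0.851 and the 3 expressed only in MH63 from 0.188 to 0.451.

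F1 was tested against the arithmetic mid-parent, the level reached if each parental copy kept the activity it has in its own line. Of the 50 tested loci, 9 were called (18%, limma with Benjamini-Hochberg adjustment over all tested loci), against 8.94% over all tested loci. Of these, 8 fell below the mid-parent (16%, against 5.58%) and 1 rose above it (against 3.36%). The parental values that chose the block enter the mid-parent, and 2 of the 8 falls, at places 118 and 277, reached FPKM 1 in no C92 library, so these shares are given as a description. Among members averaging at least 5 FPKM, 7 of 32 were called, 6 of them falls, and over all such loci 10.2% were called. At an unadjusted p below 0.05 there were 21 of 50, against 27.5% of all tested loci. In the flanks, 3 rose and 3 fell of 62 loci before the block, and 5 rose and 6 fell of 106 after it. The median difference from the mid-parent was -0.06 (log2) in the block and 0.01 over all tested loci. With the mid-parent averaged on the log2 scale, 11 loci of the block rose (6.98% of all tested loci) and 7 fell (5.14%), so the share of rises depended on how the mid-parent was taken.

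At 4 of the 8 falls the parents differed by 2-fold or more. At 2 of these F1 stood near the lower parent, MH63. LOC_Os12g29160 had 26.0, 26.6 and 35.6 FPKM in C92, 5.91, 7.87 and 5.24 in MH63, and 8.85, 7.72 and 6.59 in F1. Libraries of F1 and MH63 overlapped, far below C92, and the difference from the mid-parent was -1.11 (log2, SE 0.15, limma adjusted p = 0.00698). LOC_Os12g28177 had 8.58, 8.70 and 7.72 FPKM in C92, 2.64, 2.96 and 3.16 in MH63, and 3.27, 2.39 and 2.07 in F1. Again F1 overlapped MH63 only, with a difference from the mid-parent of -0.90 (log2, SE 0.12, limma adjusted p = 0.00521). The other 2, at places 118 and 277, were higher in MH63 and had F1 means of 0.84 and 0.49 FPKM, against 4.46 and 3.20 in MH63 and 0.04 and 0.177 in C92. There F1 was 21 and 2.77 times the lower parent, and the fall at place 118 was not called with the mid-parent on the log2 scale (limma adjusted p = 0.0512).

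At the other 4 falls the parents differed by less than 2-fold. In 3 of them, named after their values were seen, all F1 libraries lay below all 6 parental libraries. These 3 were the only such loci among the 50 tested (6%), and the pattern was found in 3.94% of all tested loci. The reverse, all F1 libraries above, was found at 0 of the 50 loci and in 5.3% of all tested loci. LOC_Os12g29220 had 79.1, 82.5 and 82.1 FPKM in C92, 58.4, 48.8 and 58.4 in MH63, and 35.0, 42.8 and 31.7 in F1. Its difference from the mid-parent was -0.89 (log2, SE 0.10, limma adjusted p = 0.00356). LOC_Os12g25700 had 38.5, 40.2 and 37.1 FPKM in C92, 28.5, 27.6 and 28.4 in MH63, and 24.0, 25.5 and 21.7 in F1, a difference of -0.48 (log2, SE 0.07, limma adjusted p = 0.00838). LOC_Os12g26880 had 42.0, 68.3 and 53.5 FPKM in C92, 48.8, 42.7 and 49.0 in MH63, and 36.4, 31.2 and 31.1 in F1, a difference of -0.60 (log2, SE 0.14, limma adjusted p = 0.0312). The fourth fall, at place 49, is the direct neighbour of LOC_Os12g25700 and had an F1 mean of 53.7 ± 5.85 FPKM, against 86.0 ± 11.8 in C92 and 64.7 ± 6.67 in MH63 (SD, n = 3).

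The single rise was less firm. LOC_Os12g28520 had 13.1, 12.3 and 11.4 FPKM in C92, 0 in every MH63 library, and 12.6, 7.58 and 11.1 in F1. F1 overlapped C92, and the difference from the mid-parent was 0.66 (log2, SE 0.15, limma adjusted p = 0.0325). This call was lost without C92 library 2, C92 library 3, F1 library 1, F1 library 3 or MH63 library 1 (adjusted p up to 0.111). The next locus by unadjusted p on this side, LOC_Os12g27335, was not called, at 0.56 (SE 0.17, limma adjusted p = 0.0746). Of the 8 falls, 5 kept the call whichever of the 9 libraries was left out, and that at place 277 kept it in the 6 removals in which it passed the filter. LOC_Os12g26880 lost it without C92 library 3, F1 library 2, F1 library 3 or MH63 library 1, with an adjusted p up to 0.112. The fall at place 49 lost it in 6 of the 9 removals, with an adjusted p up to 0.113. Without MH63 library 1, or with F1 libraries 1 and 2 both left out, 5 falls were called.

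Against single parents, F1 was called at 27 of 50 loci compared with C92 (24.3% of all tested loci) and at 24 compared with MH63 (18.9% of all tested loci). It was above C92 at 8 and below it at 19, against 10.6% and 13.7% of all tested loci. It was above MH63 at 15 and below it at 9, against 11.5% and 7.38%. Both comparisons share a parent with the contrast that chose the block, and nothing is read from their counts.

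Summed over the 388 loci, FPKM was 867, 894 and 869 in C92, 822, 794 and 870 in MH63, and 769, 730 and 740 in F1. Every F1 library lay below every parental library, though the choice of loci leaves no test of a sum. The group means were 876 ± 15.0, 829 ± 38.2 and 746 ± 20.1 (SD, n = 3). F1 minus the mean of the parents was lowest at LOC_Os12g29220, at -31.7 FPKM, and next at LOC_Os12g26290, at -25.4 FPKM. Before the block the sums were 2134 to 2361 in C92, 2310 to 2492 in MH63 and 2129 to 2208 in F1. After it they were 3206 to 3766, 3150 to 3493 and 3439 to 3908. In both flanks F1 overlapped C92. The low F1 sum was not seen in the block alone. Over the 286 loci of LOC_Os04g11195 to LOC_Os04g14304, a stretch of chromosome 4 picked in the same way, F1 had 458, 475 and 456. These sums lay below the lowest parental library, at 485. A stretch of chromosome 10, also picked in this way, did not show it. There F1 had 269, 304 and 297, which overlapped C92 (290 to 350) and lay above every MH63 library (240 to 251).

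**Figure D5:**
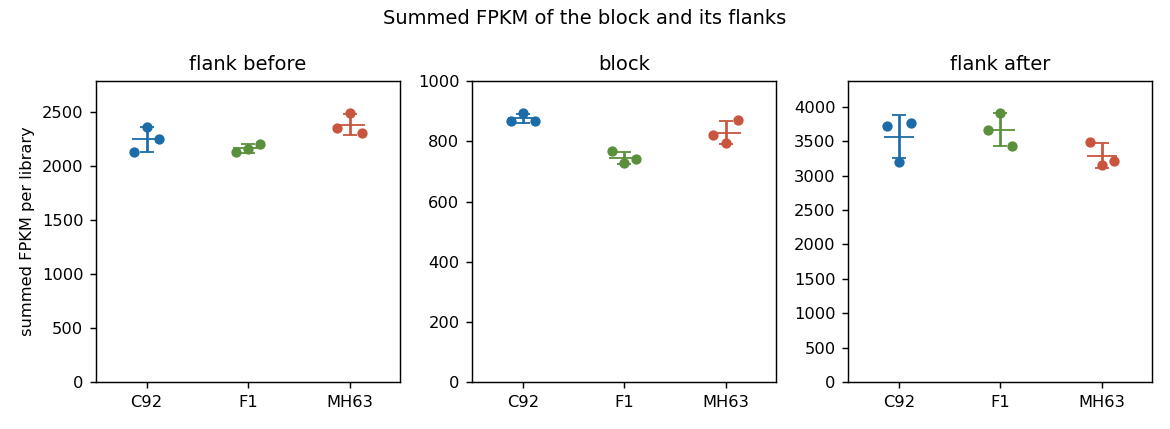
Points give the summed FPKM of each library over the 388 loci of the block and the 400 loci of each flank, with group means and SD (n = 3). In the block the F1 libraries, at 730 to 769, lie below all parental libraries, at 794 to 894. In the flanks they overlap C92. Of the stretches not drawn, that of chromosome 4 showed F1 lowest as well, and that of chromosome 10 did not.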

How the data were processed

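Polyadenylated RNA of 9 seedling shoot libraries was sequenced (3 groups of 3). The aligner was HISAT2 2.0.5, per the submitters' processing notes; build, annotation and the program behind the FPKM values are not given in the sources used. The authors deposited FPKM with 2 decimals and 1 value per locus and library. FPKM is not a count, so no count model was used, and without read numbers no counting intervals can be given; relative depth was read as the commonest ratio among low values (0.2 to 1.5 FPKM). Strand is not stated, so values of loci that overlap on opposite strands are uncertain.

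Loci reaching FPKM 1 in 3 or more libraries (21447) were fitted as log2(FPKM + 1) with limma 3.58.1 in R 4.3.3, all 9 libraries in 1 fit, with group means and an intensity trend. Fold changes on this scale understate those of low loci. Tests are two-sided with Benjamini-Hochberg adjustment over all tested loci, and a call is an adjusted p below 0.05. The arithmetic mid-parent is the log2 of the mean of both fitted parental levels, with its error by the delta method; the parental libraries enter both this test and the choice of the block. The fit was tested on simulated data. Printed loci are those with the largest parental differences (higher parent at least 5 FPKM, no overlap of libraries), the largest called departures from the mid-parent (filled up by unadjusted p where fewer than 2 were called), the highest means, the smallest parental differences, the borders and the ends of the longest run, at most 2 IDs in each direction for each of these. Beyond this rule, 3 loci with F1 below all parental libraries are named, chosen after their values were seen. Block, lists and rules were chosen with earlier results of these data known.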

Additional observations from a re-analysis of the deposited data

How the results depend on the processing

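Depth limits low loci most: their zeros are listed values, not proof of absence. Requiring a mean of at least 5 FPKM left 32 tested loci, of which 20 were called between the parents, 8 higher in C92 and 5 in MH63 at 2-fold; then 5 were divergent in each flank, F1 was above C92 at 4 and below it at 11, above MH63 at 7, and its median position was 0.671. With no filter, 52 members were called between the parents, 0 rose above the mid-parent and the position was 0.591, as with a pseudocount of 0.1. With F1 libraries 1 and 2 left out, 5 fell below the mid-parent, 5 below MH63, and the position was 0.541; over all loci called between the parents it was 0.542. With the mid-parent on the log2 scale, 11 rose. Flanks of 200 loci had 8.70% and 5.13% divergent. Leaving out single libraries gave 0 to 2 rises and 5 to 8 falls against the mid-parent, 5 to 9 loci above C92, and positions of 0.567 to 0.627. The numbers do not pair the samples: same-numbered libraries correlated in their deviations at -0.432 to 0.343, 4 of 9 pairs over 0.1. With a replicate block, 8 members were called against the mid-parent, 7 of them among the 9, and 25 were divergent. No alternative reversed a printed call.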

Other observations

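Counted without the filter, the block held more loci present in C92 alone than in MH63 alone. Of loci above 0 in every library of a parent and at 0 in every library of the other, 19 were present only in C92 (4.90% of the block, against 1.94% of all loci) and 8 only in MH63 (2.06%, against 1.25%). Of these, 11 and 2 were tested loci. All 3 F1 libraries detected 17 of the 19 and 4 of the 8, against 710 of 1080 and 364 of 695 over all loci. These counts come from the parental contrast that chose the block.

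More loci of the block were above 0 in F1 library 3 than in any other library. The numbers were 116, 123 and 119 in C92, 98, 114 and 114 in MH63, and 128, 129 and 157 in F1. In F1 library 3, 14 loci were above 0 in no other library, with a median of 0.035 FPKM. At FPKM of at least 0.1, a limit chosen after the data were seen, the numbers were 69, 69 and 69 in C92, 50, 61 and 60 in MH63, and 74, 71 and 69 in F1, so the excess of F1 library 3 lay below 0.1. The flanks gave F1 library 3 the highest number too, with 141 loci above 0 before the block and 204 after it.

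A pair of stretches on other chromosomes, also picked for their share of divergent loci, can be set beside the block. LOC_Os04g11195 to LOC_Os04g14304 on chromosome 4 held 286 loci and LOC_Os10g03570 to LOC_Os10g05490 on chromosome 10 held 162, each with 50 tested. Between the parents, 24 and 25 of these were called at 2-fold or more, 17 of them higher in C92 in each stretch, much as in the block. Loci present in C92 alone made up 5.24% and 6.79% of the stretches, and those present in MH63 alone 2.45% and 0.617%. Against the mid-parent, 3 rose and 3 fell on chromosome 4, and 1 rose and 5 fell on chromosome 10, where the chromosome 12 block had 1 and 8; these differences were not tested. The median position of F1 at their divergent loci was 0.58 and 0.50. The share of loci listed at 0 in every library was 28.3% and 26.5%, against 32.7% in the block.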
